A study of Mus musculus with 6 samples.

Results

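The Notch pathway genes examined here are 37 genes chosen by name: 4 receptors, 7 ligands and ligand-like proteins, 12 genes that process or regulate receptors, and 14 genes of the nuclear complex and its targets. All 37 had a probe on the array, which names 36163 genes in all. Their transcripts were measured in 2 sorted populations, LSC GFP+ and LSC GFP-, from the prostate of 6-day-old male FVB/N mice carrying the Tg 11.5kb-GFP transgene. Both populations therefore shared strain, sex, age, transgene and the absence of treatment, and differed in whether the sorted cells were fluorescent. LSC stands for cells negative for the lineage markers Ter119, CD31 and CD45 and positive for Sca-1 and CD49f. In this line GFP is driven by the s-SHIP promoter, which per the study is also active in vascular smooth muscle cells, so GFP marks promoter activity and not a cell type. The sources used here give 3 independent samples per population, without the number of animals behind a sample, so p values measure the spread between these samples.

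Notch signaling passes between touching cells. A ligand of the Jagged or Delta-like family on one cell binds a Notch receptor on its neighbour, a sheddase and then gamma-secretase cut the receptor, and the freed intracellular domain enters the nucleus, where it joins the DNA-binding protein Rbpj and a Mastermind-like coactivator and turns on genes of the Hes and Hey families and Nrarp. In the prostate epithelium the pathway is known for its part in the growth and differentiation of basal and luminal cells.

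Each sample was hybridised to 1 single-colour array. Signals are given as log2 values relative to the 75th percentile of the probes of the array, so that 0 is that percentile and 1 unit is a doubling, and differences are LSC GFP+ minus LSC GFP-. Testing required a signal well above background in 3 of 3 samples of one population or the other, and between 36657 and 42127 of 55681 probes reached that level per array. A gene was read at its brightest tested probe, and the error of a difference is the standard error (SE) from limma's moderated test with n = 3 per population. The threshold was an unadjusted p under 0.05, because at an adjusted p under 0.05 the percentage of all 25548 genes called was 0, and with 3 samples per population the smallest exact permutation p is 0.1. The transcripts of both sorting markers were well above background on all 6 arrays and were not called, with differences of -0.36 for Ly6a, which encodes Sca-1, and 0.25 for Itga6, which encodes CD49f.

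The probes show which part of each transcript was read, and the first 30 of their 60 bases are printed for the genes on which the results turn, with the mm9 position of the whole probe as the array design gives it. Notch1 is shown with both of its probes, which lie 4750 bases apart and read separate stretches of the gene.
Notch1 probe A_55_P2047168, chr2:26314630-26314689, minus strand: ttgcttctttccaaaatcgaaaagaaagaa
Notch1 probe A_55_P2171897, chr2:26319440-26319499, minus strand: tcctgcagtggagggggccttgagacaggc
Notch3 probe A_51_P220162, chr17:32257848-32257907, minus strand: gcctaatagaaatgtttttaggctgttttt
Jag1 probe A_52_P634090, chr2:136907433-136907492, minus strand: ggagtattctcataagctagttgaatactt
Hes1 probe A_55_P2046245, chr16:30067820-30067879, plus strand: ttaaaatatcttcctttggggaagtttatt
Hey1 probe A_51_P258409, chr3:8663432-8663491, minus strand: gatttgggctctaaaagtattgttttacag
Heyl probe A_52_P337259, chr4:122926975-122927034, plus strand: aatcattttcttcaaggtctttgcccttct
Nrarp probe A_51_P504354, chr2:25038038-25038097, plus strand: ttttttgaatcttggttatgaacccaattt

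The 250 bases before the annotated start are shown for 2 genes that were higher in LSC GFP+ cells, Nrarp and Jag1, and for 2 Hes genes that were not called, Hes5 and Hes7. The sequences are those of RefSeq on GRCm38.p6, on the strand of the gene. Capitals mark GTGGGAA, the core of the Rbpj binding site, or its reverse complement TTCCCAC.
Nrarp upstream, chr2:25180508-25180757, plus strand: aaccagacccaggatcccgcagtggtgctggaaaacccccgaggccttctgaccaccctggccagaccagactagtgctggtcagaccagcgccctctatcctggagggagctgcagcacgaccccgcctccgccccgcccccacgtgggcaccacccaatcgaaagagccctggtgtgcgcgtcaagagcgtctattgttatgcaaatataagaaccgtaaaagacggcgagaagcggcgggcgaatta
Jag1 upstream, chr2:137116521-137116770, minus strand: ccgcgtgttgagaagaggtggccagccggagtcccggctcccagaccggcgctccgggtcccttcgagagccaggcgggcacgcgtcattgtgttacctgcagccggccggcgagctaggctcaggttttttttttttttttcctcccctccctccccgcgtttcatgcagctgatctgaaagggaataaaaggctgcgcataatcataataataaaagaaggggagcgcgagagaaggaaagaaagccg
Hes5 upstream, chr4:154960673-154960922, plus strand: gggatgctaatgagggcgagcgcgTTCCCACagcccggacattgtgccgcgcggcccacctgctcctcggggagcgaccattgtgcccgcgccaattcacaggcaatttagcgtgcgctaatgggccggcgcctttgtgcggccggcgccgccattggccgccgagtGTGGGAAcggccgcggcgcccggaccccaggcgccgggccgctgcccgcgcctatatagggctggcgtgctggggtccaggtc
Hes7 upstream, chr11:69120203-69120452, plus strand: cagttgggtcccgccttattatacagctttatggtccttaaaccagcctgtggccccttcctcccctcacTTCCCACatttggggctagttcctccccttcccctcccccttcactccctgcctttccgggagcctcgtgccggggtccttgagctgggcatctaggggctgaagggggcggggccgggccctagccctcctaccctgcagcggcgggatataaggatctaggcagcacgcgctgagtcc
Hes5 held 2 matches, 1 on each strand, Hes7 held 1, and Nrarp and Jag1 held none in this window. Both strands were searched in windows of 300 bases, 250 before and 50 after the start. Of the 29 members with an entry in the promoter table, 5 held the motif, namely Hes5, Hes7, Hey2, Lfng and Psen2, against 7.25% of all genes with an entry. Of these 5, Hey2 was not tested and the other 4 were not called. A match is a run of letters and not a binding site, and Hes1, Hey1 and Heyl had no entry.

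Of the 37 genes, 34 were tested, of which 33 were well above background on all 6 arrays. At an unadjusted p under 0.05, Hey1, Jag1, Nrarp and Notch1 were higher in LSC GFP+ cells, by 1.57-fold to 2.20-fold, and Notch3 and Heyl were lower. That is 11.8% of the members tested higher and 5.88% lower, against 3.39% and 4.29% of all genes. The members were chosen with earlier results of these data known, so such shares describe the list and test nothing. None passed after Benjamini-Hochberg adjustment over all 37008 probes, where limma's adjusted p of the members ran from 0.186 to 0.999. The 3 values of LSC GFP+ cells lay wholly above those of LSC GFP- cells for 6 members, 17.6%, against 6.51% of all genes, and wholly below for 1 member, 2.94%, against 5.37%. Over all members tested the median difference was 0.00, beside -0.01 over all genes tested, with 18 of 34 higher and 16 lower.

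**Figure D1:**
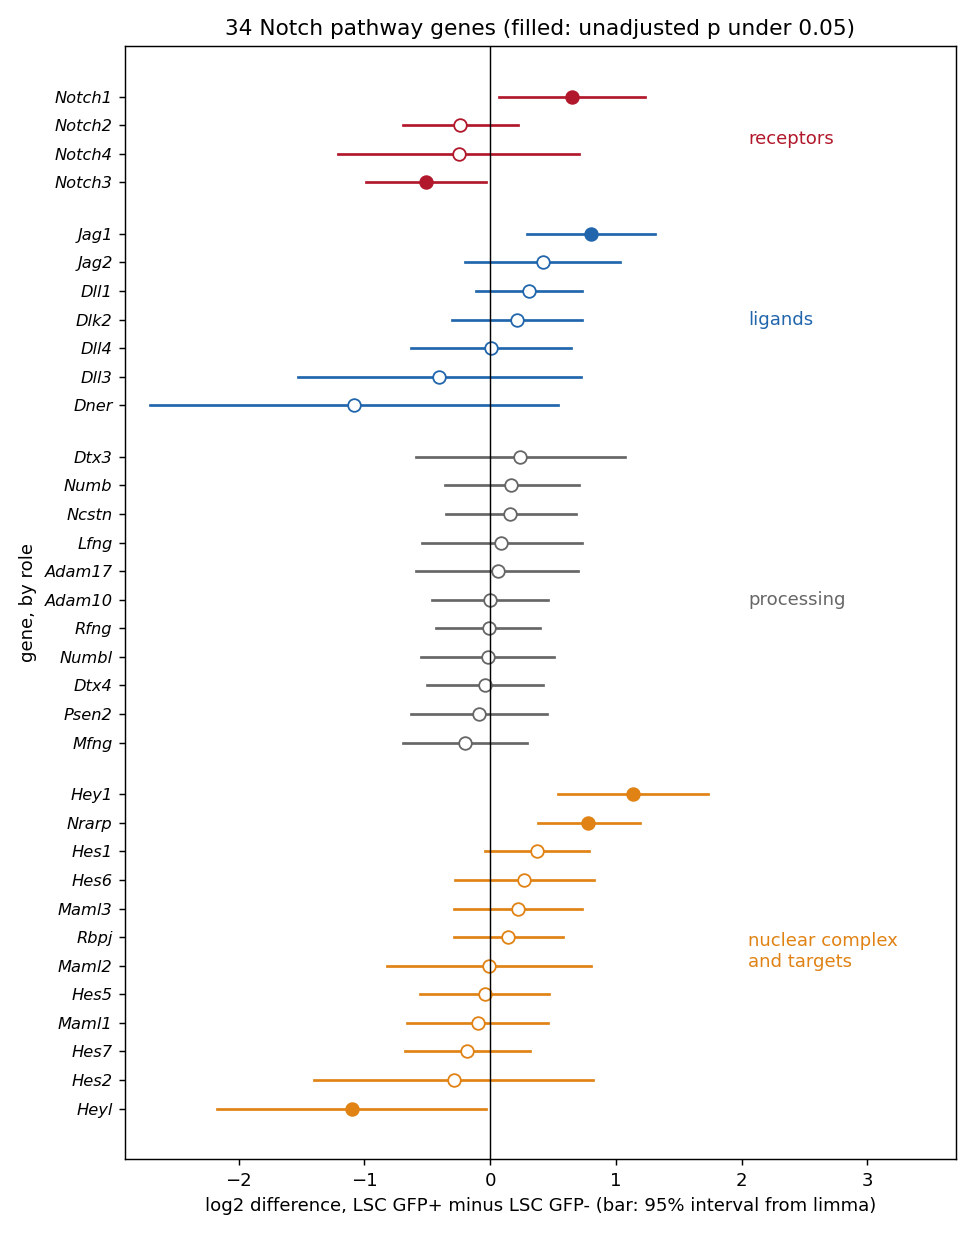
Log2 difference between LSC GFP+ and LSC GFP- cells (x axis) for the 34 genes tested (y axis), grouped by role, with the 95% interval from limma and filled points at an unadjusted p under 0.05. Receptors and targets hold called genes in both directions, the ligands hold 1 called gene, Jag1, and the intervals of all 11 processing genes include 0.

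Among the receptors, Notch1 and Notch3 were called in opposite directions. Notch1, a receptor of many epithelia, had log2 signals of 2.13, 2.64 and 1.97 in LSC GFP+ replicates 1, 2 and 3 and of 1.46, 1.90 and 1.43 in LSC GFP- replicates 1, 2 and 3. Every LSC GFP+ value lay above every LSC GFP- value, although the gap between 1.97 and 1.90 was small. The difference was 0.65 (SE 0.25, n = 3 per population, limma adjusted p = 0.547), or 1.57-fold. The second Notch1 probe read 1.07, 1.03 and 0.68 in LSC GFP+ cells against 0.39, 0.44 and -0.13 in LSC GFP- cells, which differed by 0.69 (SE 0.24, limma adjusted p = 0.439) and also passed the unadjusted threshold. The 2 probes thus gave nearly the same difference. At the brighter probe the call was lost when any of 3 arrays was left out, replicate 2 of LSC GFP+ cells (0.449) or replicates 1 (0.577) and 3 (0.562) of LSC GFP- cells, and with the methods' t-test.

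Notch3, which is best known as the receptor of vascular smooth muscle and pericytes, had log2 signals of -0.88, -0.63 and -0.43 in LSC GFP+ cells, and they were -0.13, 0.02 and -0.30 in LSC GFP- cells. The populations did not overlap, and the difference was -0.51 (SE 0.21, n = 3 per population, limma adjusted p = 0.590). The call was lost when replicate 1 (-0.395) or 2 (-0.516) of LSC GFP+ cells was left out, or replicate 1 (-0.508) or 2 (-0.430) of LSC GFP- cells. Scaling by the array median also ended it, at -0.441, and so did dropping the filter on dim probes.

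Beside Notch3 the smooth muscle and pericyte markers stood lower in LSC GFP+ cells. The summed linear signal of that list, in multiples of the 75th percentile, was 6.95 to 10.4 in LSC GFP+ cells against 19.9 to 37.8 in LSC GFP- cells, and 6 of its 8 genes were lower at an unadjusted p under 0.05. None of its markers was at background in LSC GFP+ cells, and all 8 were well above background on all 6 arrays. Per the study, the vascular smooth muscle cells with strong GFP carried hardly any Sca-1 or CD49f, the proteins used for the sort, at their surface. Those surface data are of cells with strong GFP. The part of the smooth muscle and pericyte markers in the Notch3 result was not tested. In bulk RNA, fewer cells of a type and less RNA per cell cannot be told apart.

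Notch2 and Notch4 were not called. Notch2, the other broadly expressed epithelial receptor, read 3.17, 3.55 and 3.23 in LSC GFP+ cells against 3.62, 3.61 and 3.44 in LSC GFP- cells. The difference of -0.24 had a 95% interval from -0.69 to 0.22, and the second Notch2 probe gave 0.00. Notch4, the receptor of endothelium, was dim and measured well above background in 2 of 3 LSC GFP+ samples and in 3 of 3 LSC GFP- samples, and its difference was -0.25 with an interval from -1.21 to 0.71. Of the 8 endothelial markers, Pecam1, Kdr, Cldn5 and Flt1 exceeded background on all 6 arrays and Tek on 5, while Cdh5, Emcn and Tie1 did so on 0 LSC GFP+ arrays and on 1, 2 and 1 LSC GFP- arrays. Their summed signal was 5.80 to 6.94 in LSC GFP+ cells against 6.12 to 7.16 in LSC GFP- cells. Most of each sum was Kdr, at 2.44 to 2.64 log2 on all 6 arrays, so the sum says little of the other markers. Pecam1 (-1.07), Cdh5 (-2.24), Cldn5 (-1.75), Tie1 (-2.47) and Emcn (-3.18) were highest in LSC GFP- replicate 3. Flt1 was lowest there (-4.47), and Tek did not stand out. Notch4 read -2.79, -4.48 and -3.28 in LSC GFP+ replicates 1, 2 and 3. In LSC GFP- replicates 1, 2 and 3 Notch4 read -3.14, -3.61 and -3.06, so it was highest in LSC GFP+ replicate 1. The part of the endothelial markers in the Notch4 values was not tested.

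Among the ligands, Jag1 was the gene called. Jag1, a membrane-bound ligand with the receptor-binding domain of its family, had log2 signals of 0.92, 0.99 and 0.83 in LSC GFP+ cells, and they were 0.35, 0.23 and -0.24 in LSC GFP- cells. All 3 LSC GFP+ arrays were higher, and they were closer to each other (SD 0.08) than the LSC GFP- arrays (SD 0.31). The difference was 0.80 (SE 0.22, n = 3 per population, limma adjusted p = 0.298), or 1.74-fold, and its call held in 16 of 16 alternatives, over which the difference ran from 0.622 to 0.919.

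Jag2, the other Jagged ligand, read -0.55, -0.51 and -1.37 in LSC GFP+ cells against -1.16, -1.29 and -1.22 in LSC GFP- cells. Replicates 1 and 2 of LSC GFP+ cells stood above all LSC GFP- arrays and replicate 3 below them, and the difference of 0.42 (SE 0.27, interval -0.20 to 1.03) was not called. Without LSC GFP+ replicate 3 it was 0.695 and passed the unadjusted threshold, and without LSC GFP+ replicate 1 or 2 it was 0.285 or 0.268 and did not.

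Dll1, a Delta-like ligand, was printed as 10 spots per array, of which 6 to 10 per array were kept, with an SD between the spots of an array of 0.10 to 0.14. Its log2 signals were -1.95, -1.95 and -1.89 in LSC GFP+ cells against -2.24, -2.11 and -2.37 in LSC GFP- cells. The populations did not overlap, and the difference of 0.31 (SE 0.18, interval -0.11 to 0.73) was not called. Dll4, the Delta-like ligand best known from endothelial cells, differed by 0.01, with an interval from -0.63 to 0.64.

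The remaining 3 ligand genes were not called. Dll3, a Delta-like protein that does not activate receptors on neighbouring cells, read between -3.37 and -2.95 in LSC GFP+ cells. Its LSC GFP- values were -3.04, -1.48 and -3.55, and replicate 2 stood apart. Its second probe stayed near background on all 6 arrays and was not tested. Dlk2, a Delta-like protein without the receptor-binding domain of the Jagged and Delta-like families, differed by 0.21 and 0.23 at its 2 probes and was not called at either.

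Dner, a neuronal Notch ligand that also lacks this domain, read -2.81, -3.67 and -2.76 in LSC GFP+ cells against -0.60, -3.70 and -1.71 in LSC GFP- cells. LSC GFP- replicates 1 and 3 stood high and replicate 2 lay below every LSC GFP+ array. The difference was -1.08 (SE 0.70, interval -2.70 to 0.54) and was not called. Without LSC GFP- replicate 2 it was -1.93 and passed the unadjusted threshold, and without LSC GFP- replicate 1 it was -0.376 and did not. The summed signal of the neuroendocrine markers was 13.2, 2.03 and 4.22 in LSC GFP- replicates 1, 2 and 3 and 3.40, 1.78 and 2.65 in LSC GFP+ replicates 1, 2 and 3, so the LSC GFP- samples had the same order as for Dner. The sum of the glial and neuronal markers had another order, at 161, 140 and 86.5 in LSC GFP- replicates 1, 2 and 3 against 134, 109 and 81.9. No gene of either list was called without the replicate block, and with it 3 of 4 neuroendocrine genes tested (Chga, Chgb and Syp) and 3 of 5 glial and neuronal genes (Sox10, Tubb3 and Stmn2) passed the unadjusted threshold, with less signal in LSC GFP+ cells, against 7.71% of all genes. Their part in the Dner values was not tested.

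The target genes held the largest differences in both directions. Hey1, a transcriptional repressor induced by Notch, had log2 signals of 2.69, 2.72 and 2.54 in LSC GFP+ cells, and they were 1.94, 1.04 and 1.55 in LSC GFP- cells. No LSC GFP- array reached the lowest LSC GFP+ array. The difference was 1.14 (SE 0.26, n = 3 per population, limma adjusted p = 0.190), or 2.20-fold, and LSC GFP- replicate 2 was the lowest sample.

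Nrarp, a Notch target whose protein limits the signal by binding the receptor's intracellular domain, was the member with the lowest p. Its log2 signals were 1.77, 1.74 and 1.75 in LSC GFP+ cells against 0.95, 1.03 and 0.94 in LSC GFP- cells. The samples of a population were almost alike, with an SD of 0.01 and 0.05, and the difference was 0.78 (SE 0.18, n = 3 per population, limma adjusted p = 0.186), or 1.72-fold. Across 16 alternatives the difference ran from 0.741 to 0.853 for Nrarp and from 0.904 to 1.35 for Hey1, and neither lost its call in any.

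Hes1, a repressor that is a target of Notch in many tissues, read 2.38, 2.21 and 2.30 in LSC GFP+ cells against 1.92, 1.86 and 1.99 in LSC GFP- cells. All LSC GFP+ arrays were higher, but the difference of 0.37 (SE 0.18, interval -0.04 to 0.79) missed the threshold, with a limma adjusted p of 0.708. When the fit took account of the pairing of equally numbered samples as a replicate block, Hes1 passed the unadjusted threshold (limma adjusted p = 0.298). In that fit 5 members were higher and 2 lower, 14.7% and 5.88%, against 6.52% and 7.71% of all genes, and Hes1 was the member added.

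Heyl, a Hey family gene known from vascular smooth muscle, was lower in LSC GFP+ cells, against the direction of Hey1. Its log2 signals were -4.22, -3.28 and -2.36 in LSC GFP+ cells against -2.21, -2.65 and -1.70 in LSC GFP- cells. The populations overlapped, because LSC GFP+ replicate 3 stood above LSC GFP- replicate 2. The difference was -1.10 (SE 0.46, n = 3 per population, limma adjusted p = 0.614). With normexp background correction the difference was -0.543 and still called. The call was lost in 8 of 16 alternatives, among them the fits that left out replicate 1 (-0.634) or 2 (-1.11) of LSC GFP+ cells or replicate 1 (-1.11) or 3 (-0.857) of LSC GFP- cells, median and quantile scaling, the fit without a filter on dim probes and the methods' t-test. The smooth muscle and pericyte sums given for Notch3 apply to Heyl as well, and their part in its value was not tested.

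**Figure D2:**
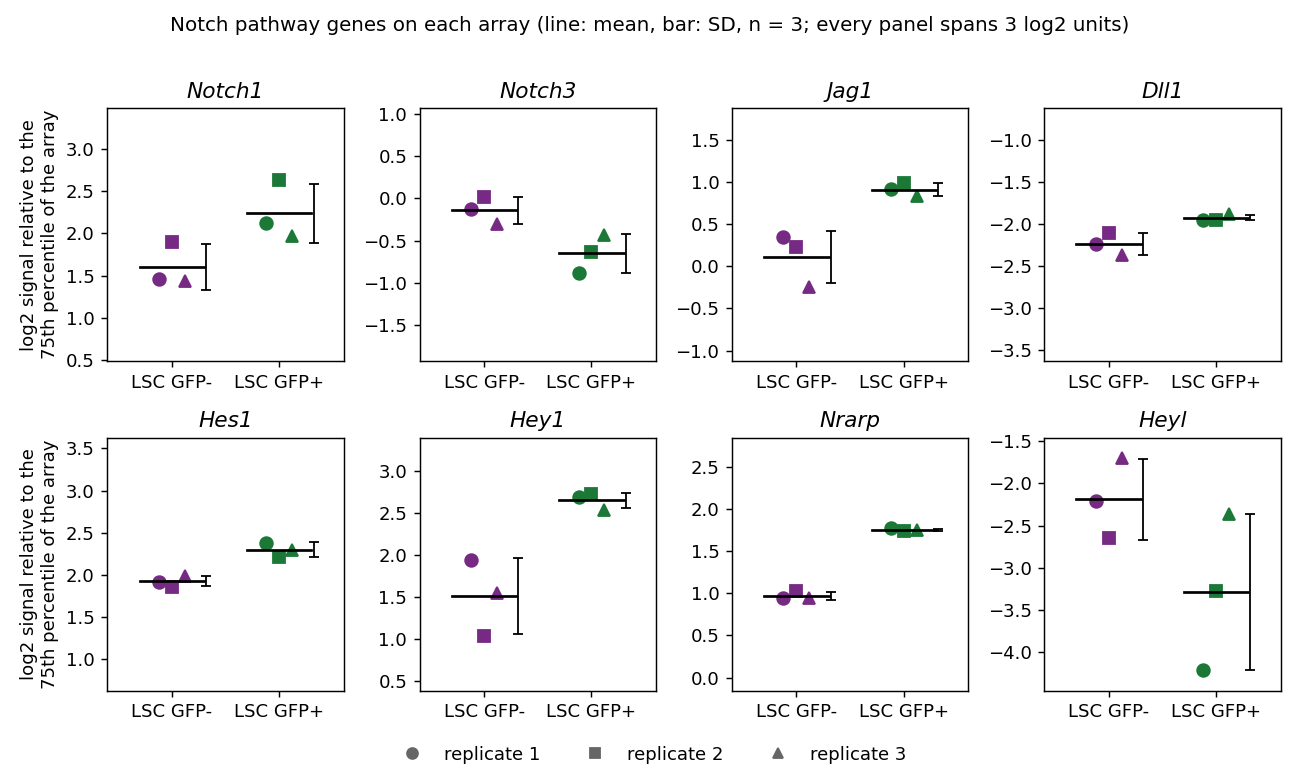
Log2 signal relative to the 75th percentile of the array (y axis) in LSC GFP- and LSC GFP+ samples for 8 genes, with the mean (line) and SD (bar) of 3 samples and a symbol for each replicate number. Hey1, Nrarp, Jag1, Hes1, Dll1 and Notch1 show no overlap with LSC GFP+ cells higher, Notch3 shows none with LSC GFP+ cells lower, and Heyl overlaps.

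The other targets were not called. Hes5, a target in neural and other progenitors, read 2.60, 2.47 and 2.30 in LSC GFP+ cells against 2.45, 2.83 and 2.23 in LSC GFP- cells, differing by -0.04 with an interval from -0.56 to 0.47. Hes7, a gene of the somite clock, differed by -0.18 and Hes6, a Hes family member that opposes Hes1, by 0.27. Hes2 varied between samples, from -2.64 to -0.98 in LSC GFP+ cells, and its difference of -0.29 had an interval from -1.40 to 0.82. Hes3 and Hey2 were not well above background on any array and were not tested.

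None of the 4 genes of the nuclear complex was called. Rbpj, the DNA-binding protein through which the receptors act, read 2.19, 2.35 and 2.09 in LSC GFP+ cells against 1.94, 2.18 and 2.08 in LSC GFP- cells, differing by 0.14 with an interval from -0.29 to 0.58. The coactivators Maml1, Maml2 and Maml3 differed by -0.10, -0.01 and 0.22. The 2 probes of Maml2 gave -0.01 and 0.42, the widest disagreement among the 8 genes with more than 1 tested probe, and neither was called.

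None of the 11 processing genes tested was called in either direction. Their differences ran from -0.20 to 0.24, with a median of 0.00, and 10 of the 11 had a 95% interval wholly between -1 and 1. The sheddases Adam10 and Adam17, which make the first cut after ligand binding, differed by 0.00 and 0.06. Adam10 read 3.88, 4.29 and 4.15 in LSC GFP+ cells against 3.98, 4.16 and 4.17 in LSC GFP- cells. The gamma-secretase subunits Ncstn and Psen2 differed by 0.16 and -0.09.

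The fringes Lfng, Mfng and Rfng, which add sugars to the receptor and so shift its preference among ligands, differed by 0.09, -0.20 and -0.01. Lfng read 0.13, 0.97 and 0.70 in LSC GFP+ cells against 0.35, 0.32 and 0.84 in LSC GFP- cells, so its samples interleaved. Numb, an adaptor that removes the receptor from the membrane, differed by 0.17 and its relative Numbl by -0.02. Dtx3 and Dtx4, of the Deltex family of ubiquitin ligases, differed by 0.24 and -0.04. Dtx3 had the widest interval of the class, from -0.59 to 1.07.

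Dtx1, the Deltex gene known as a Notch target, reached a level well above background in no LSC GFP+ sample and in 2 of 3 LSC GFP- samples, so it was not tested. Its log2 signals were -5.00, -5.22 and -5.02 in LSC GFP+ cells against -3.44, -5.07 and -3.98 in LSC GFP- cells, where replicate 2 was again the low one. The populations overlapped, because LSC GFP- replicate 2 lay below LSC GFP+ replicates 1 and 3. With LSC GFP+ samples set at the lowest signal counted as well above background, the mean of LSC GFP- cells was 1.19-fold higher. This value has no error attached.

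Samples with the same replicate number deviated together, and the differences were therefore also read within each pair. Of the 34 genes, 21 were higher in the LSC GFP+ sample and 13 were lower in pair 1 and likewise in pair 2, and 16 were higher and 16 lower in pair 3, where the other 2 were at 0 to 2 decimals, with median differences of 0.08, 0.17 and 0.00. In all 3 pairs 10 genes were higher and 3 lower. The matching shares over all genes were not computed, so the counts within pairs only describe the members. Hey1 was higher by 0.75, 1.67 and 0.99 in pairs 1, 2 and 3, and Nrarp by 0.82, 0.72 and 0.81. Jag1 was higher by 0.57, 0.76 and 1.07, and Notch1 by 0.67, 0.74 and 0.54. Notch3 differed by -0.75, -0.66 and -0.13, smallest in pair 3. Heyl differed by -2.01, -0.63 and -0.66, largest in pair 1.

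**Figure D3:**
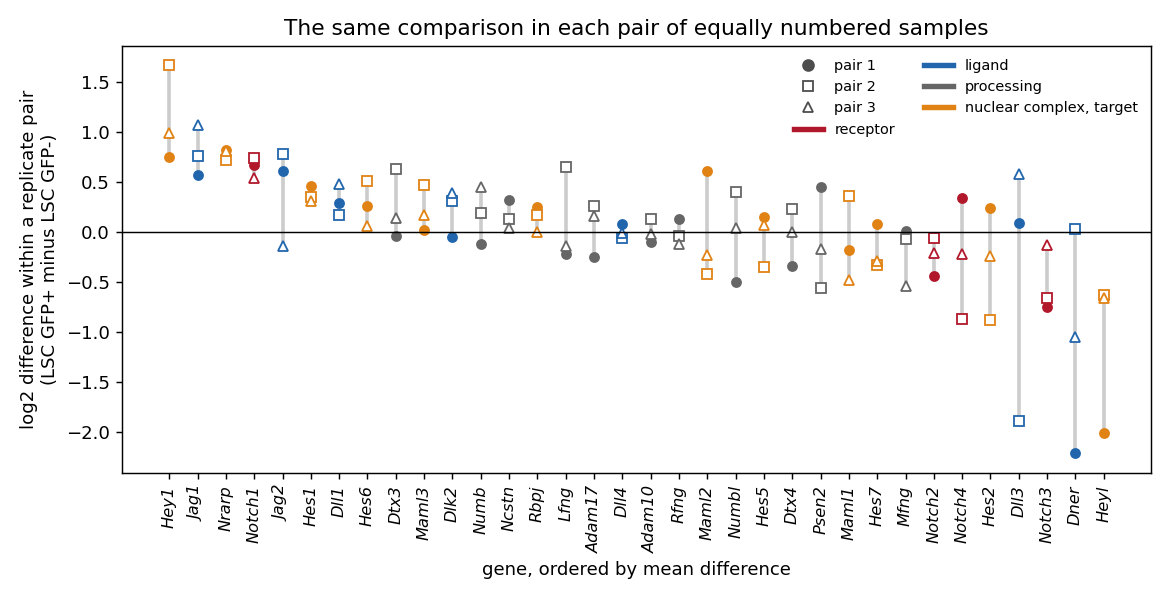
Log2 difference within each pair of equally numbered samples (y axis) for the 34 genes, ordered by mean difference (x axis), with a symbol per pair and a colour per role. Hey1, Jag1, Nrarp and Notch1 lie above 0 in all 3 pairs, Dner spans from -2.21 to 0.03, and Dll3 from -1.89 to 0.58.

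Other genes of the pathway, 38 in all from outside the members, were read in the same way. Of the 37 tested, 2 were higher and 2 lower at an unadjusted p under 0.05, 5.41% each way against 3.39% and 4.29% of all genes, none after adjustment by limma over all probes, and the median difference was 0.06. With the replicate block 5 were higher and 2 lower, 13.5% and 5.41% against 6.52% and 7.71% of all genes, and Poglut1, Kat2a and Hdac2 were the genes added. Fbxw7, the ubiquitin ligase subunit that marks the Notch intracellular domain for destruction, read 1.54, 1.80 and 1.54 in LSC GFP+ cells against 1.09, 1.18 and 0.66 in LSC GFP- cells, higher by 0.65 (SE 0.22, limma adjusted p = 0.435). Aph1b, a gamma-secretase subunit, was higher by 0.64 (SE 0.23, limma adjusted p = 0.497). Its close relative Aph1c had no probe, and signal of near-identical transcripts at the Aph1b probe cannot be told apart.

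Neurl1a, a ubiquitin ligase of ligand endocytosis, read -0.62, -0.64 and -0.23 in LSC GFP+ cells against 0.54, 0.20 and 0.23 in LSC GFP- cells, a change of -0.82 (SE 0.21, limma adjusted p = 0.261). Tle2, a Groucho family corepressor that Hes proteins recruit, read -1.51, -0.29 and -2.54 in LSC GFP+ cells against 0.47, 0.88 and 0.11 in LSC GFP- cells, a change of -1.93 (SE 0.52, limma adjusted p = 0.288). The other Groucho genes Tle1, Tle3 and Tle4 were not called, at 0.36, 0.24 and 0.01.

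Basal markers stood higher beside the members that were higher. The summed signal of 10 basal epithelial markers, keratins and basement membrane receptors among them, was 225 to 243 times the 75th percentile in LSC GFP+ cells against 164 to 177 in LSC GFP- cells, and 7 of the 10 were higher at an unadjusted p under 0.05, with a median difference of 0.73. Of the stromal fibroblast markers 5 of 8 were lower and 2 higher, with sums of 24.4 to 31.3 in LSC GFP+ cells against 23.9 to 62.9 in LSC GFP- cells. Those sums mix both directions. The 2 higher markers, Dcn (1.19) and Fbln1 (0.90), were the brightest of the list in LSC GFP+ cells. The lower ones were Col1a1 (-2.18), Col1a2 (-2.15), Col3a1 (-1.97), Lum (-1.21) and Pdgfra (-2.36). Of 8 luminal markers tested 1 was higher and 2 were lower. No endothelial or leukocyte marker was called, except that Flt1 was higher with the replicate block, by 0.84, and Lyz2 and Laptm5 of the leukocyte list were not well above background on any array. The part of cell composition in the differences of Notch1, Jag1, Hey1 and Nrarp was not tested.

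**Figure D4:**
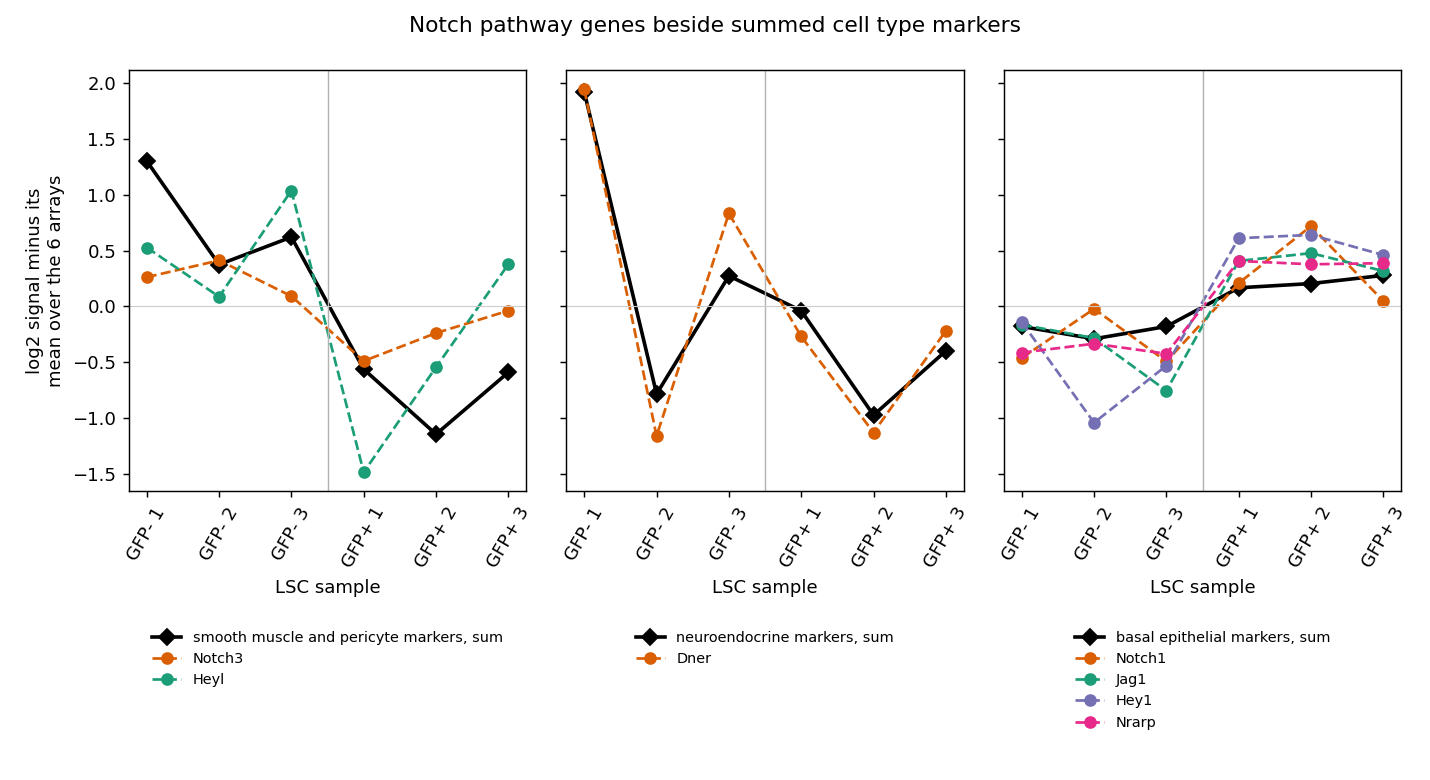
Log2 signal minus its mean over the 6 arrays (y axis) for 7 members (dashed) and for the summed signal of a marker list (black), by sample (x axis), with lines only to guide the eye. Notch3, Heyl and the smooth muscle and pericyte sum are on the left, Dner and the neuroendocrine sum, highest in LSC GFP- replicate 1, in the middle, and Notch1, Jag1, Hey1 and Nrarp with the basal epithelial sum on the right.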

How the data were processed

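RNA of 6 sorted samples, 3 LSC GFP+ and 3 LSC GFP-, was amplified, labeled with Cy3 and hybridised to SurePrint G3 Mouse arrays on 1 slide, scanned in 1 run. The deposited intensity values are the processed signals of Agilent Feature Extraction, on a linear scale with background subtracted and no normalization between arrays. The version is 11.0.1.1 per the file headers and 10.7.3.1 in the submitters' processing notes. The table of the whole series holds the same signals rounded by the authors and served as an alternative.

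Each signal was divided by the 75th percentile of its array and converted to log2. Outlier spots, 123 to 154 per array, were left out and spots of a probe averaged. No spot was saturated. Precision is limited by the number of arrays, 3 in each population. Probes that stood well above background in 3 of 3 samples of a population were tested two-sided with limma 3.58.1 (lmFit, eBayes; R 4.3.3) without covariates, with Benjamini-Hochberg adjustment over 37008 probes. The procedure was tested on simulated data, in which arrays were drawn independently and so without the pairing of samples. Every member is named, other pathway genes where they passed the threshold. Members and lists were chosen with earlier results of these data known. Genes were matched by the symbol of the array design.

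Deviations from the population means correlated between samples of the same number with r of 0.43, 0.28 and 0.67 for replicates 1, 2 and 3 across probes, so the numbers in the sample titles were taken to pair the samples, and the block was an alternative. The other alternatives were quantile normalization, median scaling, normexp background correction (offset 50), no filter and a stricter filter on dim probes, the rounded table, the methods' t-test, an intensity trend, the mean over probes, and each array left out.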

Additional observations from a re-analysis of the deposited data

How the results depend on the processing

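Hey1, Nrarp and Jag1 kept their call in all 16 alternatives, Notch1 lost it in 4, Notch3 in 6 and Heyl in 8, and none of these 6 changed direction. The number of arrays, 3 per population, and the dimness of Heyl and Notch4 limit these values. With the replicate block, 5479 array probes passed the threshold against 2925, Hes1 was added to the members, and no other call of a member changed. With each array left out in turn, 2077 to 4049 array probes and 3 to 7 members passed, the 3 without LSC GFP+ replicate 2 or without LSC GFP- replicate 1. The split of probes into higher and lower was 1250 and 1675, and became 1471 and 1299 under median scaling, 1668 and 1606 under quantile normalization and 1579 and 1219 with the methods' t-test. The split of members called was 4 and 2, and became 4 and 0 under median scaling and 4 and 1 under quantile normalization. The median difference of the members, 0.004, was 0.073 under median scaling, which moved that of all genes from -0.007 to 0.062, and ran from -0.005 to 0.11 with an array left out. Hes1 passed with normexp (0.336), an intensity trend and the methods' t-test, as did Dll1 with the last. The cause of these changes was not tested.

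Several members that were not called changed sign in an alternative. Some of them were near 0 before, but Dll3 (-0.41), Hes2 (-0.29), Notch4 (-0.25) and Dtx3 (0.24) were farther from it. Under normexp Numbl was at 0.0017 and Dll4 at -0.0595, under quantile normalization Adam10 at -0.0622 and Maml2 at 0.0293, and under median scaling Dtx4 at 0.033, Hes5 at 0.0248, Rfng at 0.0563, Numbl at 0.0476 and Maml2 at 0.0575. The mean over probes put Maml2 at 0.204. With an array left out the differences ran from -0.0898 to 0.117 for Adam10, from -0.155 to 0.293 for Adam17, from -0.836 to 0.199 for Dll3, from -0.195 to 0.214 for Dll4, from -0.0446 to 0.559 for Dtx3, from -0.129 to 0.0864 for Dtx4, from -0.784 to 0.0498 for Hes2, from -0.181 to 0.118 for Hes5, from -0.0888 to 0.328 for Lfng, from -0.331 to 0.0575 for Maml1, from -0.419 to 0.252 for Maml2, from -0.00697 to 0.278 for Ncstn, from -0.613 to 0.231 for Notch4, from -0.00993 to 0.281 for Numb, from -0.184 to 0.103 for Numbl, from -0.267 to 0.0304 for Psen2 and from -0.0477 to 0.0295 for Rfng.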
